A study of Rattus norvegicus with 3 samples.

Results

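The proteins that copy chromosomal DNA are followed here through 45 rat genes, chosen by gene symbol for their textbook roles in replication. All 45 symbols were among the 29772 genes counted. They were sorted into 8 role groups: licensing, helicase activation, the sliding clamp and its loader, polymerases and primase, Okazaki fragment maturation, nucleotide supply and uracil removal, chromatin and maintenance methylation, and clamp partners with the replication checkpoint.

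Replication starts in G1, when the origin recognition complex, Cdc6 and Cdt1 load rings of the MCM helicase onto DNA. In S phase Cdc45 and the GINS complex turn each ring into an active helicase, primase and polymerase alpha start the new strands, and polymerases epsilon and delta extend them, held on DNA by the clamp PCNA. Many of these genes are transcribed by E2F factors as a cell commits to S phase. In the embryonic cortex, dividing cells are mainly radial glia along the ventricle and the intermediate progenitors they give rise to, whereas neurons have left the cell cycle.

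Wild-type embryos of the rat (Rattus norvegicus) gave the cells, which were taken from cerebral cortex, dissociated with papain and sequenced cell by cell in droplets with a 3′ kit, in which each unique molecular identifier (UMI) marks 1 captured transcript end. There were 3 libraries, which the submitters name E14, E16 and E18 for the embryonic day. A label stands for a single library, how many embryos went into it is not stated, and no difference between labels has a replicate check, so no p-value is given and intervals cover counting error only. The protocol text also mentions expanded cultures, oligonucleotide multiplexing and a sort for live human cells, which does not match freshly dissociated rat tissue, and which steps were applied is not known.

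After filtering and removal of predicted doublets, 4286, 4977 and 5431 cells were left in label order, from 62740631, 80974234 and 73727823 UMIs in the files. Cells were clustered and named from marker genes. Radial glia numbered 404, 2912 and 1822, intermediate progenitors 435, 426 and 1395, and glutamatergic neurons 3358, 726 and 1986. Libraries differed in makeup with no run from the first label to the last: 1891 of the neurons labelled E14 were maturing excitatory neurons, whereas 725 of the 726 neurons labelled E16 lay in clusters 14 and 20, which the marker rule named Cajal-Retzius-like. Cluster 20 (144 of them) was led by Reln, but cluster 14 (581) had only 3 Cajal-Retzius markers raised, with Calb1 leading and no Reln among its top genes. Neurons labelled E16 also held 5170 CPM of newborn and 5474 CPM of maturing excitatory neuron markers, beside 4317 and 6442 at label E14 and 5841 and 5855 at label E18, so cluster 14 is called by its number here. The libraries labelled E14 and E16 shared 17 cell barcodes, E14 and E18 13, and E16 and E18 12, of which 8, 7 and 7 were among the cells kept. The radial glia labelled E14 lay mostly in cluster 17 (365 cells), those labelled E16 in clusters 2, 7, 9 and 12, and those labelled E18 in clusters 4, 11 and 12. Cluster 17 was led by Tnc, Fabp7, Mt3 and Aldoc, and Aldoc was also a top gene of cluster 4. Hmga2 was among the top genes of clusters 2, 7 and 9. The part of these genes in the differences between libraries was not tested. A cluster held mostly by 1 library may be that library and not a kind of cell. Radial glia markers, all 12 detected in each library, summed to 10559, 4481 and 6593 UMIs per 1000000 UMIs of the class (CPM) in radial glia, and Sox2 stood at 838, 484 and 724 CPM.

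Promoter sequence is shown first because the genes are commonly described as sharing E2F control and because, the fold between radial glia and neurons differed widely among them. RefSeq promoter windows (GRCr8, 250 bases before to 50 after the annotated start) were matched by symbol to 40 of the 45 genes, in 43 windows. Orc1, Cdc6, Mcm4, Gins4 and Rrm2 had no entry. The E2F-type letters searched were TTTCCCGC, TTTGGCGC, TTTCGCGC and TTTGCCGC on both strands. They occurred in 20 of the 43 windows (46.5%), against 716 of all 33469 windows in the table (2.14%). CCAAT, the letters bound by NF-Y, occurred on either strand in 27 of 43 windows (62.8%) against 37.5% of all windows. The cell cycle homology element TTTGAA, known from mitotic gene promoters, occurred in 5 of 43 (11.6%) against 18.3%. A match is a description of letters, not evidence of binding.

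The windows are those of the genes with the 3 steepest and the 3 shallowest differences between radial glia and neurons among those with a single entry, and of the MCM ring subunits with an entry at either end of the same order. Capitals mark E2F-type letters and CCAAT on either strand, and each line is written 5′ to 3′ on the gene's strand. Clspn lies at chr5:144134387-144134686 (plus strand), Pclaf at chr8:75315467-75315766 (plus strand) and Mcm10 at chr17:78175137-78175436 (plus strand). Mcm3 lies at chr9:30733697-30733996 (minus strand) and Mcm7 at chr12:22163129-22163428 (minus strand). Gins2 lies at chr19:65548003-65548302 (minus strand), Rfc5 at chr12:44868072-44868371 (plus strand) and Orc6 at chr19:37938807-37939106 (minus strand).
Clspn: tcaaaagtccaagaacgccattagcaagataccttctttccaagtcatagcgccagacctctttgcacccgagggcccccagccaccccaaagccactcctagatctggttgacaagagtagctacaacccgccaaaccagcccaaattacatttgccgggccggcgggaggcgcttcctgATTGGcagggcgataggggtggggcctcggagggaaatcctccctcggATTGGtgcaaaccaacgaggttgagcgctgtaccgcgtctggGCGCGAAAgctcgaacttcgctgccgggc
Pclaf: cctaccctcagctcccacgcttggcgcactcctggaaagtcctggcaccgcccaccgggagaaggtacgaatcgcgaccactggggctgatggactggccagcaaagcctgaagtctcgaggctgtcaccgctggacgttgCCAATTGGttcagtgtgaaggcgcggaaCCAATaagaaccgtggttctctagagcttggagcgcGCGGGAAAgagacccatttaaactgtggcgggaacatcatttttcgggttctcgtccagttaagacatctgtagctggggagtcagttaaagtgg
Mcm10: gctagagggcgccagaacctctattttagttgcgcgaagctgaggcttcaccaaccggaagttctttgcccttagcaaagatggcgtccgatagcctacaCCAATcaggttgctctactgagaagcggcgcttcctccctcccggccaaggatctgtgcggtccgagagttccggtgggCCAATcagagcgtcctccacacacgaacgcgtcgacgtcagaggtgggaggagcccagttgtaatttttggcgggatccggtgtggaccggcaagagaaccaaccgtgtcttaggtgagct
Mcm3: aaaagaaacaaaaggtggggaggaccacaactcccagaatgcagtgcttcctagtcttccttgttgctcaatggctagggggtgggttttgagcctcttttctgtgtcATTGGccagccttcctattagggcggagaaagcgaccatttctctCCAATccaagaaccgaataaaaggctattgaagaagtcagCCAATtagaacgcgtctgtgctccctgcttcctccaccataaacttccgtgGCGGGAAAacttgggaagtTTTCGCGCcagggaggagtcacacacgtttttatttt
Mcm7: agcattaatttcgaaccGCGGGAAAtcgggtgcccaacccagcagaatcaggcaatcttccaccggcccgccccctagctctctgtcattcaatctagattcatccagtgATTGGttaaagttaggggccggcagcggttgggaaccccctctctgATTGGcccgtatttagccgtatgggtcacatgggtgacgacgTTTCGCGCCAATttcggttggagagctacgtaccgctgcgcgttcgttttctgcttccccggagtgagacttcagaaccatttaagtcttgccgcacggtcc
Gins2: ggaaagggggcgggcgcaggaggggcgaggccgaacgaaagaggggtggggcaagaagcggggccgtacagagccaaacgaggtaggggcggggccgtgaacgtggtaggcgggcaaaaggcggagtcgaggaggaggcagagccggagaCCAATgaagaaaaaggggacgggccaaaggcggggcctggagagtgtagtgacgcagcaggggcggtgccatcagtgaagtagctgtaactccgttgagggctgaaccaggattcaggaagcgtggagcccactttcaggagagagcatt
Rfc5: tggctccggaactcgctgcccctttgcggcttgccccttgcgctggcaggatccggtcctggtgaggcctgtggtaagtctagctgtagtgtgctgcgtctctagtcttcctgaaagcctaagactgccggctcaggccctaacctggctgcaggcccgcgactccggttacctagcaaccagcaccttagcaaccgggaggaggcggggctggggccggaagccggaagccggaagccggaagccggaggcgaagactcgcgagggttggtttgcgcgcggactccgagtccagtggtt
Orc6: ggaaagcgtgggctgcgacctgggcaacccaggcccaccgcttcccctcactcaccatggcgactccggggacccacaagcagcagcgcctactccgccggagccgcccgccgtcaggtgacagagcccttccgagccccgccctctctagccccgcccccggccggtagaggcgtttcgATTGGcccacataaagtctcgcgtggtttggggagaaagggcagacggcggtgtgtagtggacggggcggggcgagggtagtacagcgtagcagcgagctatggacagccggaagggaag
The windows of Clspn and Pclaf each hold 1 E2F-type match, and those of Mcm3 and Mcm7 hold 2 each. Gins2, Rfc5 and Orc6, the shallowest, hold none of the E2F-type letters searched, but neither does Mcm10, which is among the steepest. Close variants of these letters, such as the tttggcgg in the Mcm10 window, were not counted. Of the 30 E2F-type matches in all 43 windows, 16 began within 100 bases before the annotated start and 7 at or after it. Overlapping matches on opposite strands, found in Gins1, Mcm2, Mcm5 and Mcm6, were counted separately, so there are fewer sites than matches.

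Summed over all 45 genes, transcripts of the replication machinery were abundant in both progenitor classes and lower in neurons. Radial glia held 4346 CPM (95% counting interval 4293 to 4400) at label E14, 6050 (6028 to 6073) at label E16 and 5544 (5515 to 5573) at label E18. Intermediate progenitors held 4176, 6080 and 4629 CPM, and neurons 789, 964 and 753 CPM. The progenitor and neuron values did not overlap in any library. Over groups of at least 50 cells, each 1 cluster in 1 library, the sum ran from 242 CPM in erythroid cells to 7933 CPM in radial glia of cluster 2, both labelled E16.

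**Figure D1:**
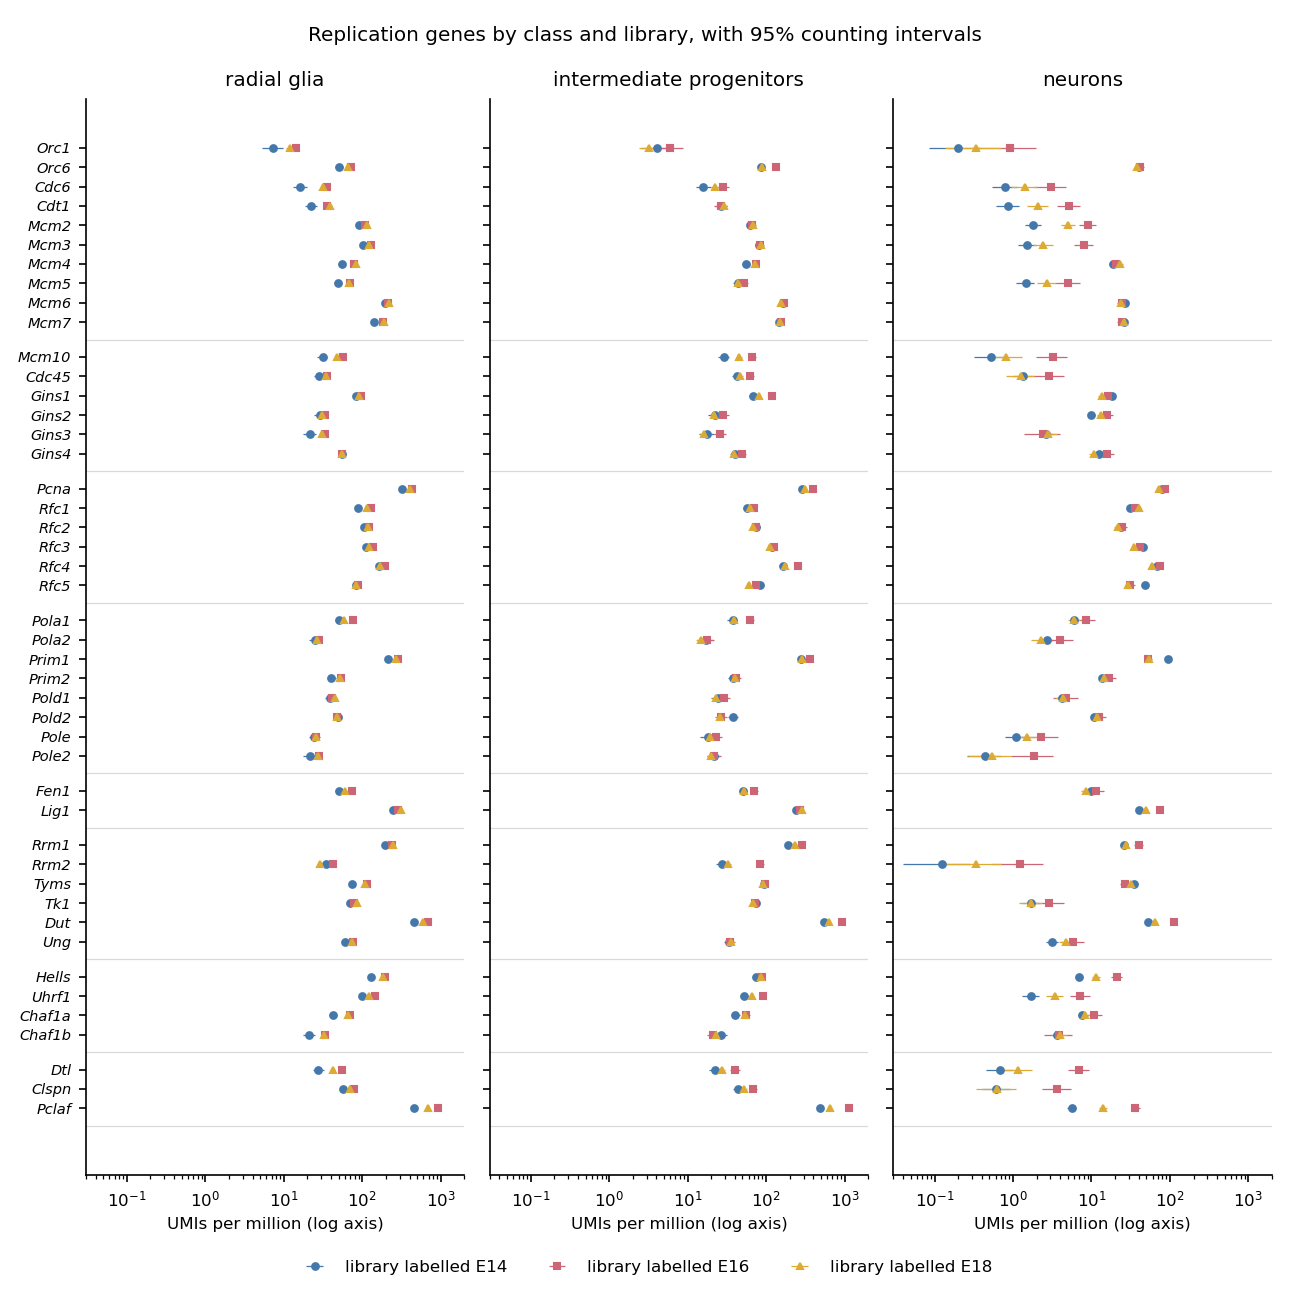
CPM (log axis) of each of the 45 genes in radial glia, intermediate progenitors and neurons, with 1 symbol per library and bars for 95% counting intervals; grey lines separate the role groups. Radial glia and intermediate progenitors look much alike, while in neurons Rrm2, for one, is at 0.123, 1.22 and 0.340 CPM in label order.

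Single cells were compared after each was thinned to 2000 UMIs, and there both progenitor classes overlapped neurons, radial glia mainly at label E14. Of radial glia, 6.75%, 0.138% and 0.997% held 0 member UMIs in label order, against 21.5%, 20.7% and 22.8% of neurons. Among radial glia, 308 of 400 cells labelled E14 kept at least 3 UMIs of the 45 genes (77.0%, exact 95% interval 72.6 to 81.0), against 98.1% of 2892 cells labelled E16 and 93.6% of 1806 labelled E18. Before thinning the shares were 98.5%, 100% and 99.6%, at median depths of 13022, 13674 and 12614 UMIs. In intermediate progenitors the thinned shares were 59.0%, 92.9% and 65.0%, with 11.1%, 0.474% and 9.40% of cells at 0 member UMIs (unthinned shares 97.7%, 99.5% and 95.9%), so that many single cells labelled E14 and E18 lay within the range of neurons. In neurons the thinned shares were 21.6%, 23.9% and 20.2%, and the unthinned ones 94.9%, 92.7% and 92.6%. Erythroid cells, used here as a class that should hold little replication RNA, though whether they still divided was not tested, gave 8 of 124 cells (6.45%, 2.83 to 12.3; unthinned 58.9%) in the library labelled E16, at a median depth of 32391 UMIs, against 8510 in the neurons beside them.

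**Figure D2:**
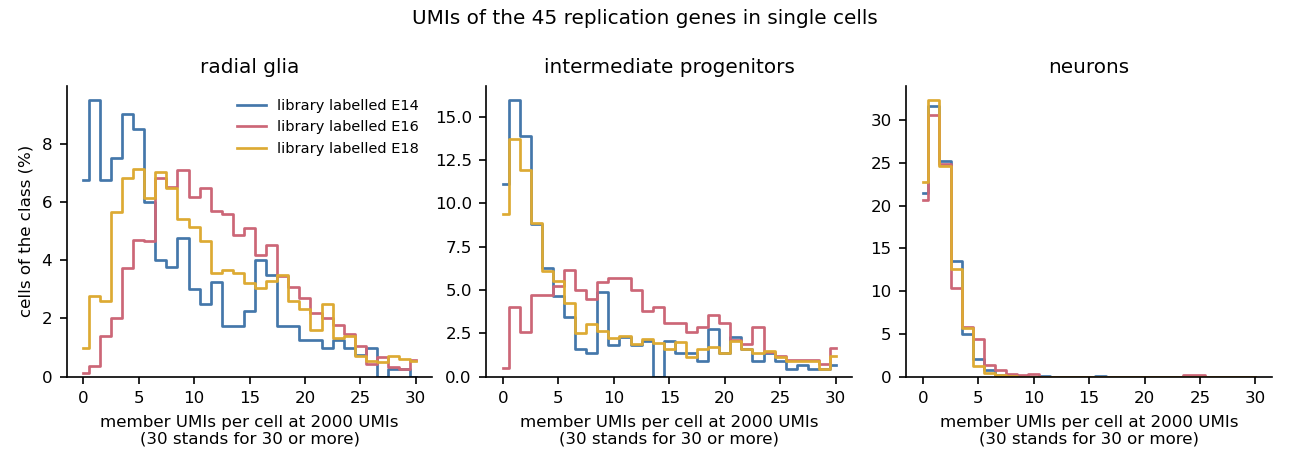
Share of cells (%) with each number of member UMIs after thinning every cell to 2000 UMIs, by class, with 1 line per library. Median radial glia held 6, 11 and 9 member UMIs in label order, median neurons 1 in each library and median intermediate progenitors 4, 11 and 4.5.

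Within radial glia, the library labelled E14 had the lowest level for 41 of the 45 genes, beside 32.3% of all genes, and that labelled E16 the highest for 34, beside 26.2%. Markers of other cell types differed too: in label order the 11 intermediate progenitor markers, none at 0, summed to 1480, 577 and 851 CPM in radial glia, with Eomes at 166, 19.9 and 66.6. The 14 maturing neuron markers summed to 497, 245 and 241 CPM, with 1 at 0 at label E14 and Neurod6 at 49.7, 2.02 and 11.8. The 10 newborn neuron markers, none at 0, summed to 412, 532 and 559 CPM. Their part in the differences between libraries was not tested. Over the library labelled E14, the summed level was 1.39-fold higher (1.37 to 1.41) at label E16 and 1.28-fold higher at label E18. Between the libraries labelled E18 and E16 it differed by 0.92-fold. The median log2 ratio of the 45 genes was 0.40 for E16 over E14, beside -0.12 for all 9890 genes of at least 5 CPM. For E18 over E14 it was 0.34 beside -0.06, and for E18 over E16 it was -0.09 beside 0.07. These 3 comparisons share libraries.

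Differences of 2-fold, with 1 CPM added, were few. In E16 over E14, 2 of the 45 genes, Cdc6 and Pclaf, were at least 2-fold higher, beside 2.41% of all genes tested, and 0 were 2-fold lower, beside 7.38%. The count of 2 ran from 0 to 4 over other settings. In E18 over E14 the counts were 0 higher (0.97% of all genes) and 0 lower (3.27%), and in E18 over E16 they were 0 higher (2.05%) and 0 lower (0.63%). Smaller differences were widespread: the counting interval lay above 0 for 37 of 45 genes in E16 over E14, beside 21.4% of all genes, and 35 of 45 in E18 over E14, beside 20.2%. It lay wholly below 0 for 0 and 1, beside 41.6% and 31.2% of all genes. The one below was Rrm2, at 34.9, 42.9 and 29.2 CPM in label order. With at least 2000 genes and at most 5% mitochondrial UMIs per cell, the summed log2 ratio for E16 over E14 was 0.13 instead of 0.48, from 131 radial glia labelled E14, and that for E18 over E16 turned from -0.13 to 0.14. Median mitochondrial shares in radial glia were 5.35%, 3.57% and 4.42%, and their part in the difference was not tested further.

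**Figure D3:**
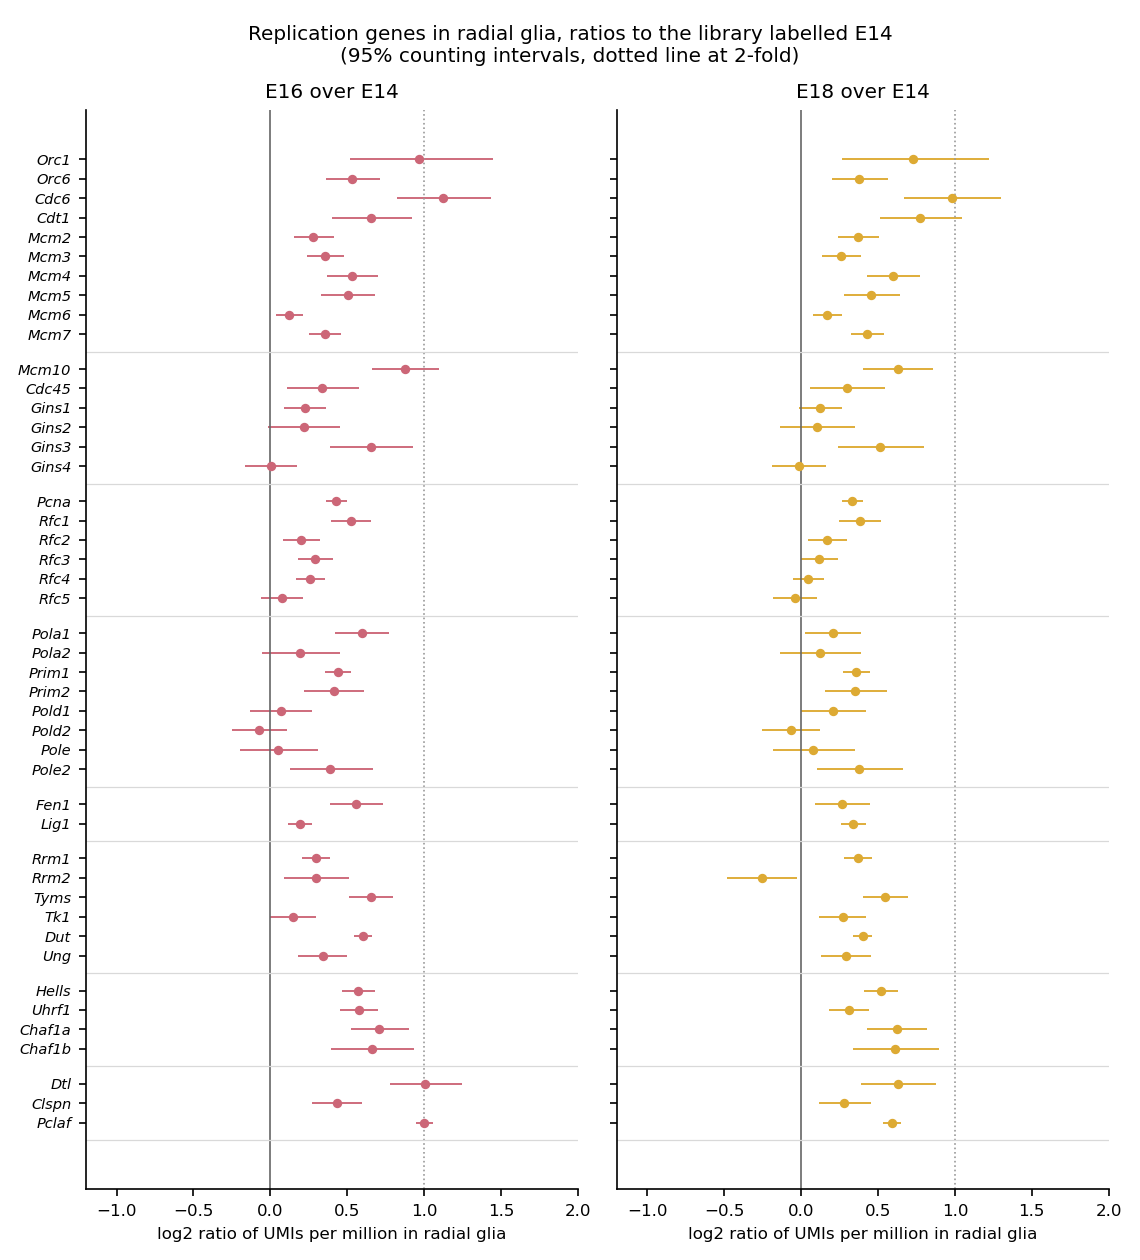
Log2 ratio of CPM in radial glia for each gene, the library labelled E16 over E14 on the left and E18 over E14 on the right, with 95% counting intervals and a dotted line at 2-fold. Most points lie between 0 and 1; Gins4, Rfc5 and Pold2 lie near 0 in both panels.

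The licensing genes include Orc1 and Orc6, subunits of the origin recognition complex. Orc1, its largest subunit, had 7.28, 14.2 and 12.1 CPM among radial glia, and its ratios rest on few UMIs (43 in the library labelled E14). Cdc6, which loads the MCM ring together with Cdt1, was at 16.2, 35.3 and 32 CPM. The library labelled E14 stood apart from the other 2, and the folds over it were 2.17 (1.77 to 2.70) at label E16 and 1.97 (1.59 to 2.46) at label E18. Mcm6, a ring subunit, had the smallest difference of the group, at 197, 214 and 222 CPM (1.09-fold, 1.02 to 1.16). Mcm2, another ring subunit, was at 89.8, 109 and 116 CPM. For all 10 licensing genes the interval lay above 0 in both comparisons with the library labelled E14, a rule met by 21.4% of all genes at label E16 and 20.2% at label E18.

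Among the helicase activators, Mcm10, which helps switch the loaded ring on, differed most. It was at 31.1, 57.1 and 48.2 CPM, 1.83-fold higher (1.58 to 2.14) for E16 over E14. Gins4, 1 of the 4 GINS subunits, did not differ beyond counting error, at 55.0, 55.1 and 54.4 CPM. The interval lay above 0 for 4 of the 6 genes of this group in E16 over E14, beside 21.4% of all genes, and for 3 in E18 over E14, beside 20.2%.

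PCNA is the ring-shaped clamp that tethers polymerases, and replication factor C opens and loads it. Pcna had 323, 435 and 408 CPM, 1.35-fold higher (1.28 to 1.41) for E16 over E14. Of the loader subunits, Rfc1, the large subunit, differed most, at 89.5, 128 and 117 CPM (1.44-fold, 1.31 to 1.57). Rfc5 differed least, at 84.3, 88.6 and 82.0 CPM, within counting error. The clamp and loader as a group were 1.26-fold higher in E16 over E14.

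Among polymerase and primase genes, Pola1, the catalytic subunit of polymerase alpha, was at 50.1, 75.6 and 57.7 CPM. Over the library labelled E14, that labelled E16 was 1.51-fold higher (1.34 to 1.70) and that labelled E18 1.15-fold (1.02 to 1.31). Pold2, an accessory subunit of polymerase delta, was the one gene of the 45 at its highest in the library labelled E14, at 49.7, 47.3 and 47.5 CPM, with an interval of 0.842 to 1.08 for the fold of E16 over E14. The interval lay above 0 for 4 of these 8 genes in E16 over E14 (21.4% of all genes) and for 5 in E18 over E14 (20.2%). Fen1, the flap nuclease of Okazaki fragment maturation, was at 50.6, 74.4 and 60.9 CPM. Lig1, the ligase that seals the fragments, was at 248, 284 and 313 CPM, so their orders among the libraries labelled E16 and E18 were opposite.

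Genes of nucleotide supply also differed unevenly. Tyms, which makes thymidylate, was at 73.9, 116 and 108 CPM (1.57-fold for E16 over E14, 1.43 to 1.74). Tk1, the salvage kinase for thymidine, was at 70.6, 78.0 and 85.1 CPM, an E16 over E14 fold of 1.11 (0.998 to 1.23). Dut, which removes dUTP before it can enter DNA, was at 457, 694 and 603 CPM.

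Chromatin genes and clamp partners held the largest group differences. Chaf1a, the large subunit of the histone chaperone CAF-1, was at 42.3, 69.2 and 65.1 CPM (1.64-fold, 1.44 to 1.87). Hells, a chromatin remodeller needed for DNA methylation, differed least of the 4 chromatin genes, at 129, 192 and 185 CPM. All 4 were higher beyond counting error in both comparisons with the library labelled E14, beside the same 21.4% and 20.2% of all genes. The clamp partners and checkpoint genes were 1.93-fold higher as a group in E16 over E14 and 1.48-fold in E18 over E14.

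Pclaf, a small protein that binds PCNA, gave most of that group's UMIs. It was at 461, 924 and 694 CPM in radial glia, 2.0-fold higher (1.93 to 2.08) for E16 over E14. Dtl, which marks Cdt1 for destruction on PCNA, was at 27.6, 55.4 and 42.6 CPM. Its fold of 2.01 (1.72 to 2.37) fell just short of 2 once 1 CPM was added. Clspn, the checkpoint mediator claspin, differed least of the 3, at 57.5, 77.6 and 69.9 CPM.

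The difference between libraries depended on which radial glia were compared. Cells were split by their UMIs from 25 mitotic genes, such as Cdk1 and Cenpf, after thinning to 2000 UMIs. Radial glia with 0 mitotic UMIs made up 28.0%, 13.6% and 23.4% of cells in label order. In them the 45 genes summed to 2852, 6343 and 5029 CPM, so that the log2 ratio over the library labelled E14 was 1.15 (1.1 to 1.2) at label E16 and 0.82 at label E18. In cells with 1 to 4 mitotic UMIs the sums were 5312, 7594 and 7057 CPM, and the E16 over E14 ratio was 0.52. In cells with 5 or more they were 4548, 5180 and 4963 CPM, and the ratio was 0.19 (0.16 to 0.21). The libraries thus lay closest together in the cells richest in mitotic RNA.

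The summed mitotic genes of all radial glia went the other way, at 5221, 4664 and 4841 CPM in label order, and 38 histone genes stood at 3855, 2228 and 2203 CPM. Split by histone UMIs, the E16 over E14 log2 ratio of the 45 genes was 0.77 in cells with none (47 cells labelled E14), 0.70 in cells with 1 to 4 and 0.19 in cells with 5 or more. Median depth differed between these bins: radial glia with 5 or more mitotic UMIs had 16218, 15827 and 14476 UMIs before thinning, and those with 0 had 11482, 11298 and 10614. Its part in the pattern was not tested.

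**Figure D4:**
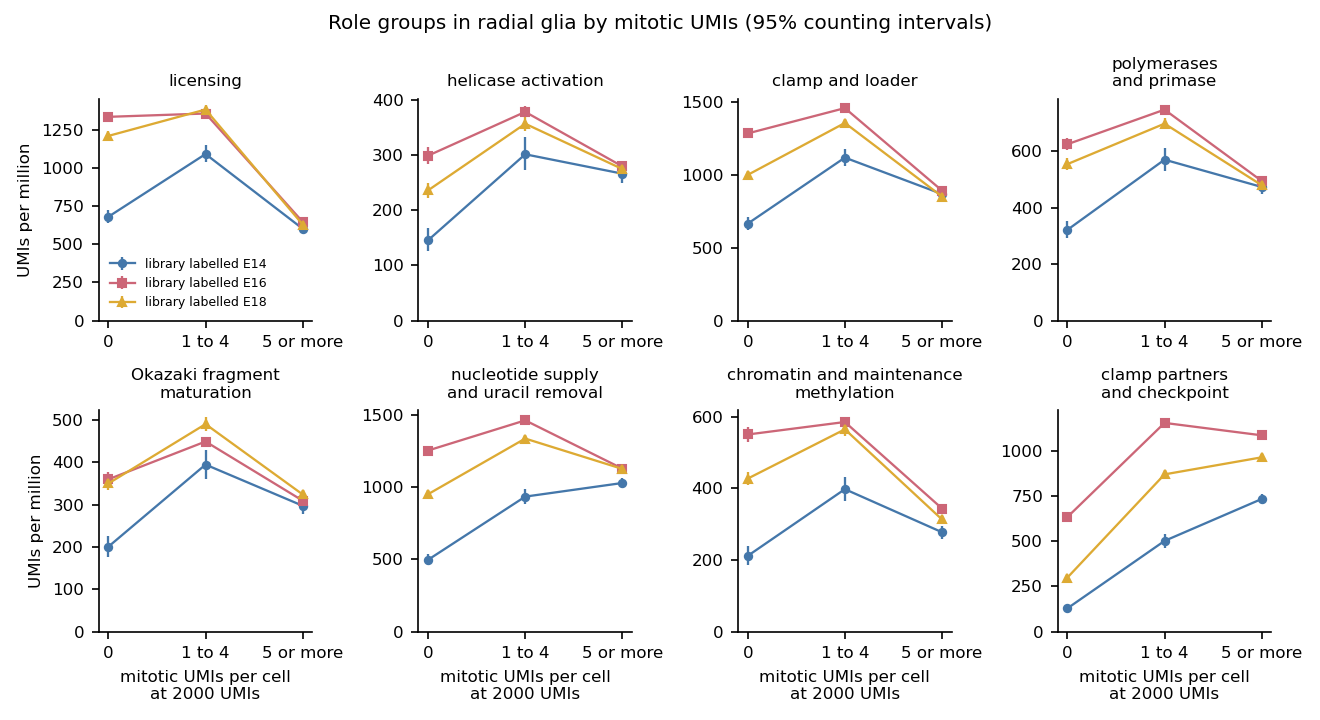
CPM of each role group in radial glia with 0, 1 to 4 and 5 or more mitotic UMIs after thinning to 2000 UMIs, with 1 line per library and bars for 95% counting intervals. The sum of licensing genes is lowest in the mitotic-rich bin of each library (602, 647 and 630 CPM in label order). At label E14 Mcm4 within it is higher in that bin than in the first. The sum of clamp partners and checkpoint genes, mostly Pclaf, is higher in the last bin than in the first (733 against 129 CPM at label E14). Dtl within it is lower at labels E16 and E18.

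The role groups were not spread alike over these bins. Licensing genes summed lower in cells with 5 or more mitotic UMIs than in cells with 0. The log2 ratios were -0.18, -1.05 and -0.94 in label order. At label E14 these genes did not move alike: Mcm2 (-0.59) and Mcm6 (-0.64) had intervals below 0. Mcm4 was higher, by 0.57 (0.096 to 1.07), and the intervals of the other licensing genes held 0. Clamp partners and checkpoint genes summed higher in cells with 5 or more mitotic UMIs, by 2.51, 0.78 and 1.69, which was Pclaf (3.03, 1.02 and 2.09) for the most part. Dtl was lower there, by -0.14 (interval -0.74 to 0.49), -1.19 and -0.92, and Clspn stood at 1.43, 0.057 (-0.11 to 0.23) and 0.64. Of the 45 genes, 7 had an interval above 0 in all 3 libraries (Gins3, Gins4, Rfc4, Rrm1, Rrm2, Tk1 and Pclaf), beside 9.58% of all genes. The interval lay below 0 in all 3 for Mcm2, Mcm6, Ung and Hells, 4 genes, beside 5.71% of all genes.

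Ung, the uracil glycosylase that clears uracil from DNA, lay at the low end. It was at 84.3, 190 and 136 CPM in radial glia with 0 mitotic UMIs and at 24.9, 20.4 and 18.5 CPM in those with 5 or more. Cdc6 was at 10.7, 71.3 and 49.1 CPM in the first and 8.29, 13.1 and 11.6 CPM in the last, a difference within counting error at label E14. Mcm6 and Mcm2 were lower in the last bin in every library as well, with mean log2 ratios of -1.15 and -1.0.

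Pclaf, the ribonucleotide reductase subunits Rrm1 and Rrm2, and Tk1 lay at the high end. Pclaf was at 79.0, 482 and 204 CPM in radial glia with 0 mitotic UMIs and at 645, 978 and 868 CPM in those with 5 or more. Rrm2, the small reductase subunit whose supply is restricted to S and G2, was at 7.67, 30.2 and 12.1 CPM in the first and 45.1, 42.3 and 35.6 in the last. Split instead by histone UMIs, 21 of the 45 genes had an interval above 0 for the histone-rich bin in all 3 libraries, beside 5.35% of all genes. None had one below 0 in all 3, beside 3.6% of all genes.

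Intermediate progenitors, which divide away from the ventricle and give rise to neurons, carried the machinery at levels near those of radial glia. The summed log2 ratio over radial glia was -0.06 (-0.08 to -0.03) at label E14, 0.0071 (-0.01 to 0.02) at label E16 and -0.26 (-0.27 to -0.25) at label E18. In the library labelled E14, 0 of 45 genes were at least 2-fold higher than in radial glia (4.81% of all genes) and 0 at least 2-fold lower (8.66%). In that labelled E16 the counts were 0 (5.03%) and 3 (7.79%), and in that labelled E18 they were 0 (5.61%) and 3 (8.17%). The 3 were Orc1, Hells and Ung both times.

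Those ratios depended on which cells were counted, since the class held 3 clusters. Cluster 3, rich in mitotic RNA, held 142, 293 and 461 cells in label order and had sums of 7388, 6579 and 7616 CPM. Cluster 8, poor in mitotic RNA, held 261, 105 and 386 cells and had 1956, 4844 and 4078 CPM. Cluster 13, highest in the neuronal differentiation gene Neurod1 and mainly of the library labelled E18 (548 of its cells, against 32 and 28), had 2833, 2807 and 1074 CPM. Without cluster 13 the ratio in the library labelled E18 turned to 0.17, a choice made after seeing the data. Its sign also turned with looser cell filters (0.033), with more doublets removed (0.14) and with coarser clusters (0.15), so that the direction of this small difference is not settled. The ratio at label E14 turned as well, to 0.063 with looser cell filters and 0.0013 when scaled by the median ratio of genes of at least 50 CPM. The ratio at label E16, within counting error of 0, ran from -0.26 as the median of the genes' ratios to 0.32 with stricter cell filters. The 10 newborn neuron markers summed to 4526, 3864 and 5004 CPM in intermediate progenitors in label order. They were lowest where the main ratio over radial glia was highest, and highest where it was lowest. Their part was not tested.

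By the mean over 3 libraries, Orc6, Cdc45 and Prim1 stood highest against radial glia. Orc6 was at 86.4, 134 and 88.5 CPM in intermediate progenitors against 50.1, 72.5 and 65.2 in radial glia, or 1.73-, 1.85- and 1.36-fold higher. Cdc45, which joins the MCM ring to form the active helicase, was 1.52-, 1.75- and 1.36-fold higher, at 42.6, 62.2 and 46.8 CPM against 28.1, 35.5 and 34.5. Prim1, the catalytic primase subunit, was at 280, 368 and 289 CPM against 212, 287 and 271. With Dut, these were the 4 genes whose interval lay above radial glia in each library, a rule met by 13.7% of all genes. Rrm2 had no such even order: it was 1.97-fold the radial glia level at label E16, above Orc6, and below radial glia at label E14 (27.7 against 34.9 CPM).

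At the other end, 15 genes lay below radial glia beyond counting error in each library, a rule met by 23.3% of all genes. Orc1 was at 4.13, 6.01 and 3.24 CPM in intermediate progenitors, 0.567-, 0.423- and 0.269-fold the radial glia level. Hells was at 74.3, 88.4 and 87.0 CPM, 0.575-, 0.460- and 0.471-fold. Ung was at 34.0, 34.8 and 36.2 CPM, 0.561-, 0.455- and 0.489-fold. The origin recognition subunits Orc1 and Orc6 therefore stood at opposite ends of the mean order. Uhrf1, which brings maintenance methylation to newly copied DNA, and Mcm2, Mcm3 and Mcm6 were also among the 15, whereas Mcm4, Mcm5 and Mcm7 were not.

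Between libraries, 3 of 45 genes were at least 2-fold higher in intermediate progenitors labelled E16 than in those labelled E14, beside 3.08% of all genes. Rrm2 was at 27.7, 84.4 and 33.0 CPM in label order, 3.05-fold (2.51 to 3.72) for E16 over E14. Pclaf was at 489, 1152 and 659 CPM (2.36-fold) and Mcm10 at 28.9, 66.4 and 45.5 CPM (2.30-fold). For all 3 the library labelled E16 stood above the other 2. These are values of the class as a whole, in which the mitotic-rich cluster 3 made up a larger part at label E16 than at label E14. Within cluster 3 the genes lay closer together: Rrm2 was at 61.1, 99.9 and 68.0 CPM, Pclaf at 1117, 1405 and 1411 CPM and Mcm10 at 65.6, 74.6 and 88.9 CPM. Within cluster 8 Pclaf was at 63.9, 381 and 207 CPM, Rrm2 at 5.47, 34.1 and 13.5 CPM and Mcm10 at 4.74, 43.4 and 28.3 CPM, all further apart than in cluster 3. None of the 44 genes tested was 2-fold higher in E18 over E14, beside 1.1% of all genes, nor in E18 over E16, beside 3.01%. The mitotic genes moved alike in this class, at 3302, 6083 and 3908 CPM, and their part was not tested.

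Neurons held far fewer replication transcripts, with wide differences between genes. Radial glia over neurons was 5.51-fold (log2 2.46) for the summed genes in the library labelled E14, 6.27-fold (2.65) in that labelled E16 and 7.37-fold (2.88) in that labelled E18. At least 2-fold higher in radial glia were 42 of the 44 genes tested in the library labelled E14 (19.8% of all genes), 44 of 45 in that labelled E16 (15.8%) and 44 of 45 in that labelled E18 (17.6%). All 44 genes that averaged at least 5 CPM over both classes in each library were higher beyond counting error in each, a rule met by 34.9% of all such genes, and so was Orc1, which was under that minimum at label E14. The clusters were made from all cells, so this describes the classes and tests nothing. With at least 2000 genes and at most 5% mitochondrial UMIs per cell, the summed log2 ratios were smaller, at 1.54, 1.88 and 2.38. Without clusters 14 and 20 the summed log2 ratio was 2.46 and 2.90 in the libraries labelled E14 and E18, and the neurons left in that labelled E16 were too few for a value.

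**Figure D5:**
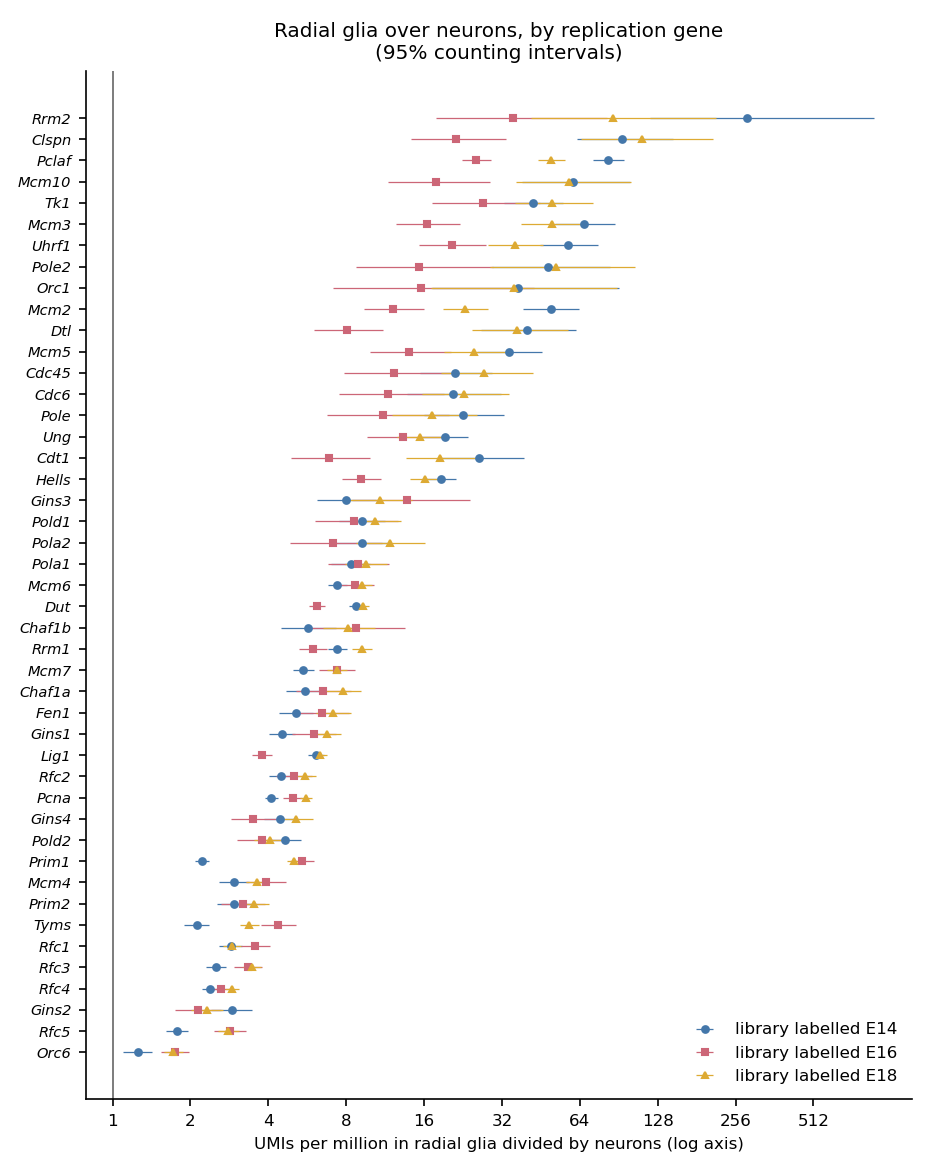
Fold of radial glia over neurons for each gene (log axis), ordered by the mean over 3 libraries, with 95% counting intervals. The mean runs from 1.55-fold for Orc6 to 94.9-fold for Rrm2, and the upper genes spread most between libraries, with the lowest fold in that labelled E16.

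Averaged over libraries, 15 genes stood at 16-fold or more and 10 below 4-fold. The steepest was Rrm2, at 0.123, 1.22 and 0.340 CPM in neurons, with folds of 283 (119 to 881), 35.2 (17.8 to 81.5) and 85.9 (41.5 to 214). Clspn was at 0.616, 3.66 and 0.631 CPM in neurons. Pclaf was at 5.59, 36.3 and 14 CPM, or 82.5-, 25.5- and 49.6-fold lower than there. In all 3 the library labelled E16 had the highest neuronal value. Its neurons also held the most mitotic UMIs (70.5, 277 and 123 CPM in label order) and radial glia markers (247, 588 and 351 CPM). Intermediate progenitor markers were likewise highest there, at 841, 1908 and 853 CPM, with Eomes at 59.1, 382 and 84.7. The part of these markers and of mitotic RNA was not tested.

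The shallowest were Orc6, Rfc5, Gins2, Rfc4, Rfc3, Rfc1, Tyms, Prim2, Mcm4 and Prim1, in that order. Orc6 was at 40.1, 41.7 and 37.9 CPM in neurons, so radial glia stood only 1.25-fold (1.1 to 1.42), 1.74-fold and 1.72-fold higher. Rfc5 was at 47.5, 31.2 and 29.3 CPM and Rfc4 at 69.3, 75.3 and 58.9 CPM. The mean folds of the 5 loader subunits ran from 2.42 to 4.98. The 6 helicase activators spread more widely, from 2.42 for Gins2, 4.29 for Gins4 and 5.68 for Gins1 to 10.6 for Gins3, 19.2 for Cdc45 and 39.7 for Mcm10. Pcna itself was at 78.9, 87.6 and 72.8 CPM, a fold of 4.10, 4.97 and 5.60.

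The MCM ring, whose 6 subunits work in equal numbers, could be parted into 2 sets by transcript level in neurons. In neurons Mcm4, Mcm6 and Mcm7 were at 18.6, 20.3 and 22.9, at 26.6, 24.7 and 24.1, and at 25.9, 24.7 and 25.9 CPM in label order. Mcm2 was at 1.82, 8.99 and 5.05 CPM, Mcm3 at 1.53, 7.92 and 2.43 CPM and Mcm5 at 1.45, 5.03 and 2.72 CPM. Mcm2, Mcm3 and Mcm5 together gave 38.0%, 39.4% and 38.2% of the ring's UMIs in radial glia and 33.9%, 34.0% and 34.8% in intermediate progenitors. In neurons they gave 6.32% (exact 95% interval 5.49 to 7.24), 24.0% (20.6 to 27.6) and 12.3% (10.7 to 13.9). The sets were chosen with the neuronal levels known, so a lower share in neurons follows in part from the choice. The separation between neurons and progenitors was present in each library and smallest in that labelled E16.

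Erythroid cells labelled E16 also held replication UMIs, and how they compared with neurons of that library depended on the scale. In CPM the 45 genes summed to 242 in erythroid cells and 964 in neurons. Per cell they summed to 8.0 UMIs (7.51 to 8.51) in erythroid cells, which were deeper, and 8.72 (8.50 to 8.94) in neurons. Orc6 was at 5.86 against 41.7 CPM, or 0.194 against 0.377 UMIs per cell, and Pclaf at 22.7 against 36.3 CPM, or 0.75 against 0.328 UMIs per cell. Rrm2 was higher in erythroid cells on both scales, at 4.40 (2.60 to 6.95) against 1.22 CPM and 0.145 against 0.011 UMIs per cell. The level that free RNA gives in neurons was not tested, so low neuronal values may hold some of it. In single cells thinned to 2000 UMIs, 7.44%, 6.66% and 6.49% of neurons held an Orc6 UMI, against 2.42% of erythroid cells (0.502 to 6.91). Unthinned, the shares were 37.1%, 29.8% and 30.9% of neurons and 12.9% of erythroid cells (7.56 to 20.1).

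E2F-type letters in the promoter windows followed the same order only loosely. They were present in 9 of the 12 genes with an entry at 16-fold or more, in 9 of 19 at 4-fold to under 16-fold and in 2 of 9 below 4-fold. The pairing is a description over genes chosen with these ratios known. Mcm7 and Mcm3, shown above with 2 matches each, had mean folds of 6.67 and 38.0.

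Other replication genes, a list of 60 of which 59 were matched (Supt16 was not), followed the 45 in part. In radial glia they summed to 4796, 6055 and 5726 CPM in label order, 1.26-fold for E16 over E14. Of the 58 tested, 1 was at least 2-fold higher in E16 over E14, beside 2.41% of all genes, and 0 lower, beside 7.38%, with a median log2 ratio of 0.31. The interval lay above 0 for 38 of the 59, beside 21.4% of all genes, and below for 4, beside 41.6%. The 5 highest were E2f2 (5.92, 13.4 and 10.9 CPM), Chek1 (44.0, 86.2 and 73.1), Ccne1 (30.6, 55.2 and 42.1), Exo1 (15.9, 29.1 and 21.7) and Ticrr (12.5, 22.2 and 21.0).

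Among these, E2f2 encodes a transcription factor, Chek1 the checkpoint kinase, Ccne1 a cyclin of S phase entry, Exo1 a nuclease and Ticrr a factor that helps load Cdc45. The 5 lowest were E2f1 (46.7, 29.8 and 45.5 CPM), Pole4 (80.4, 56.5 and 71.1), Rnaseh2b (115, 88.3 and 105), Mcm8 (19.1, 16.6 and 16.7) and Ccne2 (32.3, 28.8 and 26.8). E2f1 and E2f2, activators of the same family, thus had opposite orders between the libraries labelled E14 and E16. The E2f1 fold was 0.638 (0.560 to 0.729) and that of E2f2 was 2.25 (1.60 to 3.27).

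Across 33 groups of at least 50 cells, each 1 cluster in 1 library, most of the 45 genes moved together. Correlated with the sum of the other 44 on log2(CPM + 1), Fen1 was highest (Pearson r = 0.99), followed by Gins1, Lig1 and Pcna (each 0.97). Orc6 was lowest (0.80), then Gins2 (0.83), Rfc5 (0.84) and Ung (0.85). Groups from 1 library share that library, and the correlations are given as a description.

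Of 6140 genes in none of the lists, the 10 most like the summed 45 were Skp2 (r = 0.97), Wee1 (0.96), E2f3 (0.96), Haus6 (0.96), Ppwd1 (0.96), Anp32b (0.95), Rcc1 (0.95), Rmi2 (0.95), Gmps (0.95) and Dnajc9 (0.95). Skp2 encodes a ubiquitin ligase subunit that acts on cell cycle inhibitors, Wee1 a kinase that restrains entry into mitosis, and Gmps an enzyme of guanine nucleotide synthesis.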

How the data were processed

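The deposited files hold raw UMI counts per gene and cell barcode for 3 libraries. Cell Ranger 6.0.1 and mRatBN 7.2 are named in the submitters' processing notes, and other settings are not given in the sources used here. Cells with at least 1000 genes and at most 10% of UMIs from 13 mitochondrial genes were kept, and the cells with the highest Scrublet doublet scores (0.8% per 1000 cells) were removed. Cells were clustered with scanpy 1.11.5 (2000 variable genes, leaving out the members, other cell cycle lists, and genes that are sex-linked, mitochondrial or encode haemoglobins or ribosomal proteins, 30 components, 15 neighbours, Leiden resolution 1) into 26 clusters, named from marker genes. Neurons join newborn and maturing clusters with clusters 14 and 20, the last 2 added after the data were seen because nearly all neurons labelled E16 lay there.

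For each class in each library, UMIs were summed and given as CPM. Ratios carry exact conditional binomial 95% intervals, sums Poisson ones and shares Clopper-Pearson ones, all for counting error only. A gene of at least 5 CPM was counted as different at a 2-fold ratio with 1 CPM added. Shares of all genes beside counts of members use the same rule and the same minimum of 5 CPM. The interval and the 2-fold rule were also run on simulated counts that held counting error only. That run says nothing of variation between cells or libraries. Named genes are the highest and lowest of each role group in E16 over E14 in radial glia, Pcna and Mcm2, the 3 highest and lowest between intermediate progenitors and radial glia, the 5 highest and lowest other replication genes and the 10 most alike genes; others were named after their values were seen. The 45 genes and all lists were chosen with earlier results of these data known. UMIs mark transcript ends, so levels of different genes are not strictly comparable. This holds also for the MCM sets and for shares of a group's UMIs. Alternatives covered cell filters, doublets, clustering, scaling, thinning and added CPM.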

Additional observations from a re-analysis of the deposited data

How the results depend on the processing

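Over the alternatives run, the summed genes stayed higher in radial glia labelled E16 and E18 than in those labelled E14, and higher in radial glia than in neurons in each library. The directions that turned were E18 over E16 in radial glia and intermediate progenitors over radial glia. Of the values recomputed, 106 stayed within the counting interval, or for counts within 1.5 times, 80 moved further, and 7 turned in sign from a value beyond counting error of 0. Intermediate progenitors over radial glia at label E16 started within counting error of 0 and is not counted among the 7, although it took both signs. The cause was not tested. Values below are log2 ratios of the summed genes unless a count or share is named, in label order where 3 are given. With 1 library per label no library could be left out, and no paired analysis was possible because the result comes from no test and each label has 1 library.

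With at least 2000 genes and at most 5% mitochondrial UMIs, the ratios in radial glia were 0.13 for E16 over E14, 0.27 for E18 over E14 and 0.14 for E18 over E16, which turned. Radial glia over neurons was 1.54, 1.88 and 2.38, intermediate progenitors over radial glia 0.32 (E16) and -0.41 (E18), the share of radial glia labelled E14 with at least 3 member UMIs 87.8%, and the count at least 2-fold higher in E16 over E14 was 0. With at least 500 genes and at most 20%, the E16 over E14 ratio in radial glia was 0.52, that of E18 over E14 0.39, and radial glia over neurons was 2.37, 2.61 and 2.77. Intermediate progenitors over radial glia was 0.063, 0.074 and 0.033, turned for E14 and E18, and the 2-fold count was 4.

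With no doublets removed, the 3 ratios in radial glia were 0.52, 0.38 and -0.14, radial glia over neurons 2.40, 2.41 and 2.79, and intermediate progenitors over radial glia 0.037 (E16) and -0.016 (E18). With doublets removed at 2 times the rate, radial glia over neurons was 2.55 (E16) and 2.81 (E18), and intermediate progenitors over radial glia 0.089 (E16) and 0.14 (E18, turned). The share of radial glia labelled E16 was 98.7% and the 2-fold count in E18 over E14 was 1.

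At resolution 0.5, E18 over E16 in radial glia was -0.11, radial glia over neurons 2.43, 2.57 and 2.77, intermediate progenitors over radial glia -0.023, 0.061 and 0.15 (turned for E18), and the 2-fold count in E16 over E14 was 1. At resolution 2, intermediate progenitors over radial glia was 0.030 (E16) and -0.16 (E18), radial glia over neurons 2.85 (E18), the shares 98.7% (E16) and 94.7% (E18) and the 2-fold count 1. With all genes allowed as variable genes, E18 over E14 was 0.37 and E18 over E16 -0.099, radial glia over neurons 2.72 (E16), intermediate progenitors over radial glia -0.018 (E16) and -0.18 (E18) and the 2-fold count 1. With each library clustered on its own, the ratios in radial glia were 0.51, 0.48 and -0.039, radial glia over neurons 2.44 (E14), and intermediate progenitors over radial glia -0.20, 0.072 and -0.15.

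Scaled by the median ratio of genes of at least 50 CPM, the ratios in radial glia were 0.53, 0.38 and -0.15, radial glia over neurons 2.34, 2.58 and 2.81, and intermediate progenitors over radial glia 0.0013 (turned), 0.036 and -0.20. As medians of the genes' own ratios, E16 over E14 was 0.40 and E18 over E16 -0.087, radial glia over neurons 2.82, 2.83 and 3.09, and intermediate progenitors over radial glia -0.16, -0.26 and -0.41. With 10 CPM added the 2-fold count in E16 over E14 was 0. Thinned to 4000 UMIs the shares were 90.3%, 99.9% and 98.7%, and with at least 1 member UMI they were 93.2%, 99.9% and 99.0%. Without cluster 13, added after seeing the data, intermediate progenitors over radial glia was -0.027, 0.039 and 0.17, turned for E18.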
